A study of Rattus norvegicus with 12 samples.

Results

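Transcript levels in rat hippocampal neuron cultures were compared between synaptic activity and synaptic block while transcription was inhibited with actinomycin D (ActD). The comparison used 6 of the 12 Illumina bead arrays of the series, chosen by their labels alone: 3 arrays of Activity+ActD cultures and 3 of Block+ActD cultures, with 1 array of each at 5, 30 and 60 min. Activity+ActD cultures received bicuculline (BiC, 50 µM) and 4-aminopyridine (4-AP, 500 µM) together with ActD (25 µM). Block+ActD cultures stayed in APV (50 µM), CNQX (40 µM) and tetrodotoxin (TTX, 100 nM) together with ActD (25 µM). All cultures came from Sprague Dawley rats of embryonic day 18.5, were grown for 12 days, were first held for 3 h in the blocking cocktail, and 3 coverslips were pooled for each sample. The other 6 arrays, Activity and Block without ActD at the same times, were not part of the difference itself. They served for reference, and they entered the normalization, the choice of tested probes and the spread used by the test. The stimulus lasted 5 min and the later harvests followed it according to the methods, whereas the labels give the times as treatment times. The neurons grew on a glial feeder layer, so glial RNA was part of every sample. All 12 arrays carry replicate number 3 and no group held replicates, so the 3 harvests stood in for replicates. SEs and p-values measure the scatter left after treatment and harvest were fitted over all 12 arrays, moderated across probes. They are therefore not the spread of the 3 differences of a gene with ActD, and this scatter may be technical.

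BiC blocks inhibitory GABA-A receptors and 4-AP blocks potassium channels, so that together they drive repetitive firing. APV, CNQX and TTX block NMDA receptors, AMPA and kainate receptors, and sodium channels. ActD binds DNA and stops RNA polymerase, and in its presence the level of a messenger RNA is set by decay and no longer by new synthesis, which is why the study used it to ask which transcripts are stabilized or destabilized by neuronal firing. MicroRNAs are one class of regulators of decay. They pair through their seed, bases 2 to 8, with sites in target transcripts. The mature sequences of the 3 microRNAs whose predicted targets are described here are printed 5′ to 3′ from RefSeq (GRCr8), because their seeds define the target lists, and capitals mark the seed.
rno-miR-326-3p: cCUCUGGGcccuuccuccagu
rno-miR-330-5p: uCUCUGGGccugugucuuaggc
rno-miR-485-5p: aGAGGCUGgccgugaugaauuc
The first pair share the seed CUCUGGG and therefore 1 target list, although they lie apart on chromosome 1 (chr1:163266224-163266244 and chr1:87961227-87961248, plus strand). The seed of miR-485-5p is GAGGCUG (chr6:134571076-134571097, plus strand).

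Levels are given as log2 intensity after background correction and quantile normalization, and differences as Activity+ActD minus Block+ActD on that scale. Of 22523 probes, 11792 were tested. A tested probe had signal above the negative controls (detection p under 0.01) on no fewer than 2 of the 12 arrays. Between 9751 and 10779 probes were detected on each of the 6 arrays. Neurons, the labelled cell type, were present: 11 of 11 neuron markers were detected on all 6 arrays. Among them, Gap43, a growth cone protein, had levels from 14.53 to 14.91 and the microtubule protein Tubb3 from 11.89 to 12.11. Astrocyte markers were present as well (13 of 13 detected on all 6 arrays), with Fabp7 at 14.69 to 14.86 and Gfap at 13.11 to 13.93. The arrays of 5 min stood apart: the root mean square difference between arrays with ActD was 0.63 to 0.81 for a 5 min array against a later array, but 0.25 (5 min), 0.27 (30 min) and 0.25 (60 min) between Activity+ActD and Block+ActD at the same harvest. Comparisons were therefore made within harvests. The array labelled Block+ActD at 60 min lay nearest not to a Block array but to the Activity array of 60 min (0.23), whereas the arrays of 30 min lay nearest to those of their own stimulus (0.22 each). The Block array of 60 min likewise lay nearest to Activity+ActD at 60 min (0.24, against 0.33 to Block+ActD). Activity+ActD at 60 min, in contrast, lay nearest to the array of its own stimulus, Activity at 60 min (0.20). At 5 min Block+ActD was nearer to Activity (0.40) than to Block (0.49), and so was Activity+ActD (0.33 to Activity, 0.40 to Block). Without the Block+ActD array of 60 min 0 probes were called as well (lowest adjusted p 0.962 in limma), and whether these arrays match their labels was not tested.

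Known markers of the treatments differed little. Fos, the classic activity-induced transcription factor, had levels of 8.14, 6.07 and 6.06 at 5, 30 and 60 min in Activity+ActD cultures, against 7.87, 6.63 and 5.79 in Block+ActD cultures. Egr1, another such factor, had 9.34, 9.07 and 8.71 in Activity+ActD cultures, against 9.08, 9.25 and 8.65 in Block+ActD cultures. Both were higher with activity at 5 and 60 min and lower at 30 min. Junb had 10.05, 8.22 and 7.44 in Activity+ActD cultures, against 10.08, 8.04 and 7.54 in Block+ActD cultures, and Arc, a synaptic regulator made on demand, had 6.07, 5.82 and 5.46, against 5.80, 5.69 and 5.41. The spread between harvests of Fos and Junb was thus larger than their difference between stimuli. The transcripts of immediate early genes turn over quickly, so their levels also bear on the inhibitor. Among the 44 measured members, the median difference of Activity+ActD from Activity was -0.03, -0.02 and 0.00089 at 5, 30 and 60 min, and that of Block+ActD from Block was 0.18, -0.01 and 0.07. At 30 and 60 min 0 of the 44 were lower by 1.5-fold or more with ActD than without it, under either stimulus. At 5 min 2 of the 44 were lower past 1.5-fold and 0 higher with ActD under activity, and 3 were lower and 3 higher under block. Myc, a transcription factor with a short-lived messenger, had 9.49, 9.38 and 9.71 in Activity+ActD cultures and 9.33, 9.41 and 9.47 in Block+ActD cultures, against 9.51, 9.35 and 9.59 in Activity cultures and 9.57, 9.27 and 9.55 in Block cultures without ActD. Myc was picked after its values were seen.

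No transcript passed the test of Activity+ActD against Block+ActD cultures over the 3 harvests. In limma's moderated test (two-sided) 0 of 11792 probes (0%) passed a Benjamini-Hochberg adjusted p of 0.05, and the lowest adjusted p was 0.996. At an unadjusted p under 0.05 there were 338 probes, 171 higher (1.45%) and 167 lower (1.42%). Together this is a smaller share than a threshold of 0.05 passes on average where no probe differs. The fit added treatment and harvest, so any effect of ActD that changed with harvest stayed in the scatter. The test may therefore be conservative, and the absence of calls does not show that no transcript differed. The mean difference was above 0 for 5602 probes (47.5%) and below 0 for 6190 (52.5%). The direction was the same at all 3 harvests for 1534 probes that were higher (13%) and 1606 that were lower (13.6%). For 141 probes (1.2%) all 3 Activity+ActD levels lay above all 3 Block+ActD levels, and for 200 (1.7%) all lay below. The genes described next had the lowest p among those with 1 direction at all 3 harvests, and each had an adjusted p of 0.996 in limma, so their values are descriptions of 6 arrays.

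Among the 10 such genes with higher levels, Snap25 had the brightest probe. It encodes a SNARE protein that drives fusion of synaptic vesicles. Its level was 10.36, 11.93 and 11.68 at 5, 30 and 60 min in Activity+ActD cultures, against 9.78, 11.52 and 11.15 in Block+ActD cultures. The difference was 0.57, 0.40 and 0.53, with a mean of 0.50 ± 0.17 (SE), although the groups overlapped across harvests, both being lowest at 5 min. Without ActD the same gene differed by -0.42, 0.10 and -0.29. The zinc finger factor Zbtb1 had 6.61, 7.04 and 7.30 in Activity+ActD cultures, against 6.17, 6.68 and 6.44 in Block+ActD cultures, a mean difference of 0.55 ± 0.14 (SE). Rb1cc1, a scaffold that starts autophagosome formation, had 5.99, 8.32 and 8.42, against 5.77, 7.99 and 7.42, so that its mean difference of 0.51 ± 0.14 (SE) came mostly from 60 min, where it was 0.99. Setd2, which methylates histone H3 on lysine in transcribed genes, followed the same course with 5.88, 7.94 and 8.22 in Activity+ActD cultures, against 5.34, 7.69 and 7.39 in Block+ActD cultures. Egf, the epidermal growth factor precursor, had 5.74, 6.16 and 5.77 in Activity+ActD cultures, against 5.30, 5.50 and 5.30 in Block+ActD cultures, and here all Activity+ActD levels lay above all Block+ActD levels. The others were the ammonium transporter Rhcg, the synaptonemal complex protein Syce1, the cullin regulator Dcun1d3, the zinc finger protein Zfp3 and the secreted glycoprotein Stc2. A second, dimmer probe of Dcun1d3 had a mean difference of 0.01. Over the 10 genes the mean difference ranged from 0.39 to 0.62, or from 0.16 to 0.49 with arrays scaled to equal totals, and 7 of the 10 had mean levels under 7, near the lower end of the measured range, where the median over all tested probes was 7.10.

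The 10 genes with lower levels were read by dim probes, with mean levels under 7 for 10 of 10 when both groups were averaged. Aagab, which helps to assemble clathrin adaptors, had 6.38, 5.73 and 6.09 at 5, 30 and 60 min in Activity+ActD cultures, against 6.75, 6.67 and 6.49 in Block+ActD cultures, and the groups did not overlap. Its differences were -0.37, -0.93 and -0.41, with a mean of -0.57 ± 0.14 (SE), and without ActD they were -0.18, -0.51 and -0.26. Pcdha13, a protocadherin of the neuronal surface, had 5.66, 4.85 and 5.02, against 5.83, 6.10 and 5.56, with a mean difference of -0.65 ± 0.19 (SE). Members of the protocadherin alpha cluster share exons, so the probe may also read its neighbours. The small GTPase Rap2a differed by nearly the same amount at each harvest, with 5.80, 5.61 and 5.71 in Activity+ActD cultures, against 6.26, 5.98 and 6.05 in Block+ActD cultures (mean difference -0.39 ± 0.13, SE). So did Ddr2, a collagen receptor kinase, with 5.74, 5.94 and 6.01, against 6.15, 6.36 and 6.39, and Faap20, a Fanconi anaemia pathway protein, with 6.79, 6.31 and 6.46, against 7.36, 6.74 and 6.93. The mitochondrial protease Afg3l1, the endoplasmic reticulum protein Erlin2, the meiotic protein Sycp2, the olfactory receptor Or2l5 and Mettl25b completed the list. The mean differences of the 10 lay between -0.65 and -0.38, or between -0.36 and -0.22 with arrays scaled to equal totals. Of these 20 genes, 8 had groups that did not overlap (3 higher and 5 lower), against 1.2% higher and 1.7% lower of all probes. The 20 were picked for a low p and 1 direction at all harvests, which favours such groups, so the count is not evidence.

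**Figure D1:**
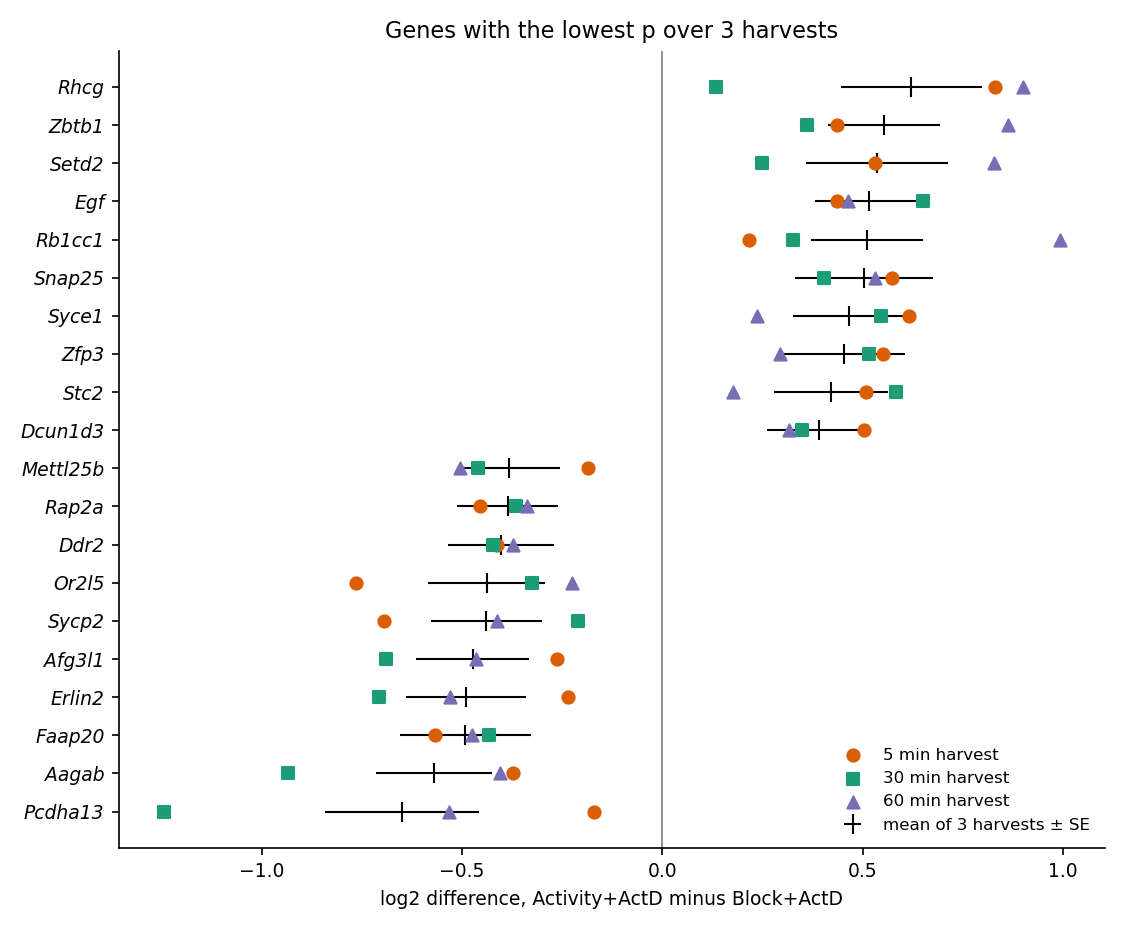
Log2 difference of Activity+ActD minus Block+ActD at 5 min (circles), 30 min (squares) and 60 min (triangles) for the 10 higher and 10 lower genes with the lowest p, with the mean of the 3 harvests ± SE (black, limma). Differences at single harvests of 1 gene are often further apart than the SE, as for Rb1cc1 (0.22 to 0.99) and Pcdha13 (-0.17 to -1.24), whereas Ddr2 and Rap2a lie close together.

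The direction of the probes past 1.5-fold differed between harvests. At 5 min 212 probes (1.8%) were higher and 168 (1.42%) lower in Activity+ActD than in Block+ActD cultures, at 30 min 136 (1.15%) were higher and 318 (2.7%) lower, and at 60 min 270 (2.29%) were higher and 86 (0.729%) lower. After scaling to equal total intensity without background correction the counts were 15 higher and 4 lower at 5 min, 11 higher and 194 lower at 30 min and 103 higher and 0 lower at 60 min. Lower levels thus made up 44.2%, 70.04% and 24.2% of these probes at 5, 30 and 60 min in the first processing and 21.1%, 94.6% and 0% in the second. At 5 min both arrays detected 42.5% of the higher and 47.0% of the lower probes of the first processing, against 79.2% of all probes. The shares were 53.7% and 75.8% at 30 min, against 84.7%, and 75.2% and 59.3% at 60 min, against 84.8%. At a z-fold of 1.4, the threshold value of the methods, 845 probes were higher (8.1%) and 695 lower (6.66%) at 5 min, 574 higher (5.5%) and 633 lower (6.07%) at 30 min, and 815 higher (7.81%) and 612 lower (5.87%) at 60 min, of 10429 probes that every one of the 6 arrays detected at p under 0.1. The methods counted a transcript only if it passed both with and without ActD. That rule was not applied here, so these counts cannot be set against the lists of the study. The z-fold was computed here as the difference in z-score between both arrays, divided by the SD of these differences over all probes, so it ranks probes within a harvest and does not measure a fold. Each of these differences is 1 array against 1 array, with no replicate check.

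**Figure D2:**
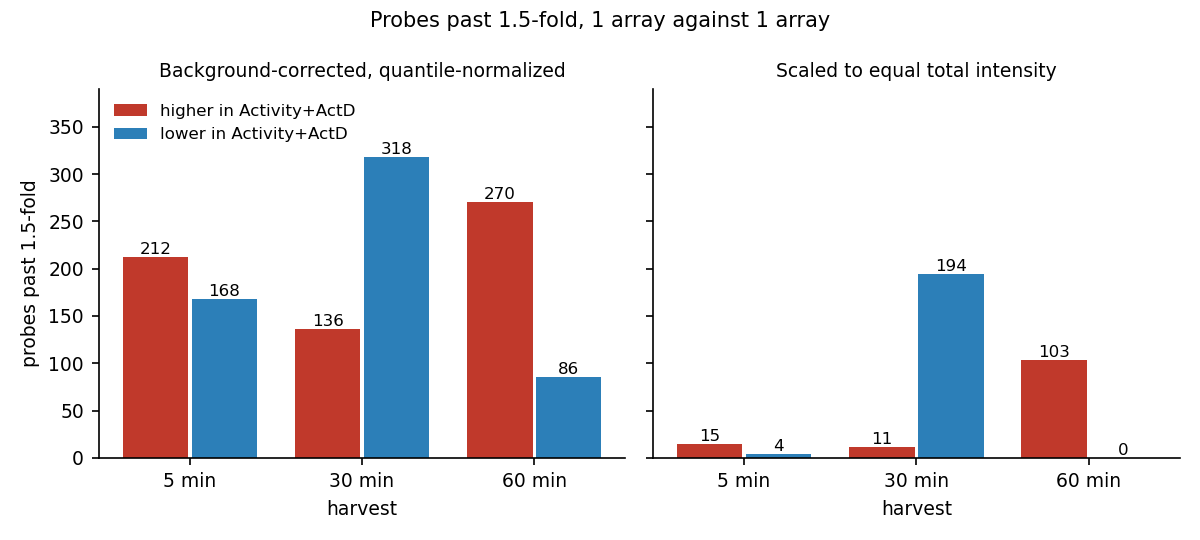
Probes past 1.5-fold between Activity+ActD and Block+ActD at each harvest, higher in red and lower in blue, in the main processing (left) and after scaling to equal total intensity (right). The excess of lower levels at 30 min (318 against 136 higher) and of higher levels at 60 min (270 against 86 lower) is present in both panels, while few probes pass at 5 min on the right.

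At 5 min, the end of the stimulus, the 5 genes with the largest higher levels among probes detected on both arrays were read at levels under 7. The splicing helicase Dhx8 had a level of 6.61 in Activity+ActD cultures, against 5.58 in Block+ActD cultures. The chromatin remodeller Smarca5 had 6.93, against 6.06, and the related remodeller Chd6 had 6.53, against 5.71. The deubiquitinase Usp13 (6.33 in Activity+ActD, 5.38 in Block+ActD) and the calmodulin-dependent phosphodiesterase Pde1a (6.35 and 5.46) completed the 5. Of the 212 higher probes, 146 were also higher at 60 min (68.9%, against 46.5% of all probes), but 109 at 30 min (51.4%, against 52.6%). Lower genes at 5 min were led by the vitamin D hydroxylase Cyp24a1, with 6.65 in Activity+ActD cultures, against 7.78 in Block+ActD cultures. Ap4e1, a subunit of the adaptor complex AP-4, had 6.02, against 7.05, and B3gat1, which makes the HNK-1 carbohydrate of neural adhesion molecules, had 6.06, against 7.07. The chemokine Ccl5, a product of activated immune cells, had 6.95, against 7.94, and was not detected on the 4 later arrays. The fifth was 1810009J06Rikl (5.65 and 6.54). Neither direction was repeated by the pair of arrays without ActD at 5 min, where 69 of the 212 higher probes were higher (32.5%, against 49.1% of all probes) and 75 of the 168 lower probes were lower (44.6%, against 50.8%). Against the mean of the Activity and Block arrays of 5 min, the higher set had a median difference of -0.04 in Activity+ActD cultures and -0.75 in Block+ActD cultures, and the lower set -0.21 and 0.51. The Block+ActD array was the further of both from the arrays without ActD for 145 of the 212 (68.4%) and 119 of the 168 probes (70.8%), and also for 7209 of all 11792 (61.1%).

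Microglia markers differed along with this contrast at 5 min. All 10 measured markers were lower in the Activity+ActD array of 5 min than in the Block+ActD array, with a median difference of -0.43 (-0.22 after equal-total scaling, where all probes had 0.03), and their summed intensity was 1273, against 1888. Without ActD at 5 min the same 10 markers all lay the other way, higher in the Activity than in the Block array, with a median difference of 0.44. Aif1, which marks microglia, had 9.18, against 9.75, and the Fc receptor Fcgr3a had 6.76, against 7.60. At 30 and 60 min the sum was between 119 and 172 in Activity+ActD cultures and between 120 and 161 in Block+ActD cultures, and 2 to 4 of the 10 markers were detected on each array. Of the 10, 2 were detected on all 6 arrays and Laptm5 on none. In bulk RNA, fewer cells of a type and less RNA per cell cannot be told apart. The part of microglia in the differences at 5 min was not tested. Neuron markers summed to 47388, 63335 and 61550 at 5, 30 and 60 min in Activity+ActD cultures, against 43827, 69400 and 55292 in Block+ActD cultures. Astrocyte markers summed to 136380, 116231 and 118522, against 129364, 120369 and 113441. Both sums were thus higher with activity at 5 and 60 min and lower at 30 min, and their part in the differences was not tested.

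At 30 min lower levels in Activity+ActD cultures prevailed. The largest lower difference was that of Dpysl3, a collapsin response mediator of growth cones. Its level was 9.60, 8.03 and 8.51 at 5, 30 and 60 min in Activity+ActD cultures, against 9.52, 9.79 and 8.46 in Block+ActD cultures, so the groups were close at 5 and 60 min and differed by -1.76 at 30 min. The vesicle trafficking GTPase Rab14 had 9.15, 7.92 and 8.71, against 9.13, 9.56 and 8.58, and the transcription factor Nfix had 10.78, 9.53 and 10.17, against 10.90, 11.01 and 9.98. Both differed by 0.20 or less at 5 and 60 min. Orai2, a store-operated calcium channel (5.47 in Activity+ActD and 6.94 in Block+ActD at 30 min), and Ddx6, an RNA helicase of mRNA decay and processing bodies (9.07 and 10.45), followed. Members of the gene lists described further on were also lower at 30 min. The dendritic microtubule protein Map2 had 6.18, 6.53 and 7.41 in Activity+ActD cultures, against 6.01, 7.55 and 6.51 in Block+ActD cultures, lower by 1.02 at 30 min but higher by 0.91 at 60 min. The kinesin Kif5c differed by -1.12 at 30 min (-0.37 by a second, dimmer probe), the myosin Myo5a by -1.07, and the calcium-calmodulin kinase subunit Camk2b by -1.16. For Map1b, another microtubule protein, 1 probe differed by -1.70 at 30 min and a second, brighter probe by -0.32, and the probes disagreed in the direction of the mean difference (-0.32 and 0.02). Map1b was picked after its values were seen.

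The pair of arrays without ActD at 30 min, which shares no array with the pair above, lay on the same side. Of the 318 probes lower with ActD, 283 were lower without it (89.0%, against 45.6% of all probes), 160 of them past 1.5-fold, with a median of -0.59. Without ActD at 60 min 264 were lower (83.02%, against 45.9%), with a median of -0.35. With ActD at 60 min, in contrast, 83 of the 318 were lower (26.1%, against 53.3%), and at 5 min 128 (40.3%, against 51.0%). Dpysl3 had 8.34 in Activity and 9.79 in Block cultures at 30 min without ActD, and 8.66 and 9.29 at 60 min. The median level of the 318 probes was 6.14 in Activity+ActD and 6.94 in Block+ActD cultures at 30 min, 6.39 in Activity and 6.96 in Block cultures at 30 min, and 6.63 and 6.93 in Activity and Block cultures at 60 min, but 6.53 in Activity+ActD and 6.30 in Block+ActD cultures at 60 min. The Block+ActD array of 60 min thus lay below both Activity arrays of 60 min for these probes, and below the other later Block arrays.

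Higher genes at 30 min were fewer. Arid4b, a subunit of a histone deacetylase complex, had 6.91 in Activity+ActD cultures, against 5.95 in Block+ActD cultures, and the endoplasmic reticulum channel Clcc1 had 9.64, against 8.85. Chic2 (9.03 and 8.10), Spindoc (8.19 and 7.41) and the ciliary transport protein Ift74 (8.78 and 8.02) completed the 5. Of the 136 higher probes 85 were also higher without ActD at 30 min (62.5%, against 54.03%). The single largest difference on the arrays belonged to 1 unnamed probe (ILMN_1650404), singled out after its values were seen. It had 10.39, 11.27 and 9.82 in Activity+ActD cultures, against 9.88, 7.90 and 9.33 in Block+ActD cultures, and at 30 min it also differed by 2.57 without ActD. Its mean difference was 1.46 ± 0.47 (SE, limma adjusted p = 0.996).

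**Figure D3:**
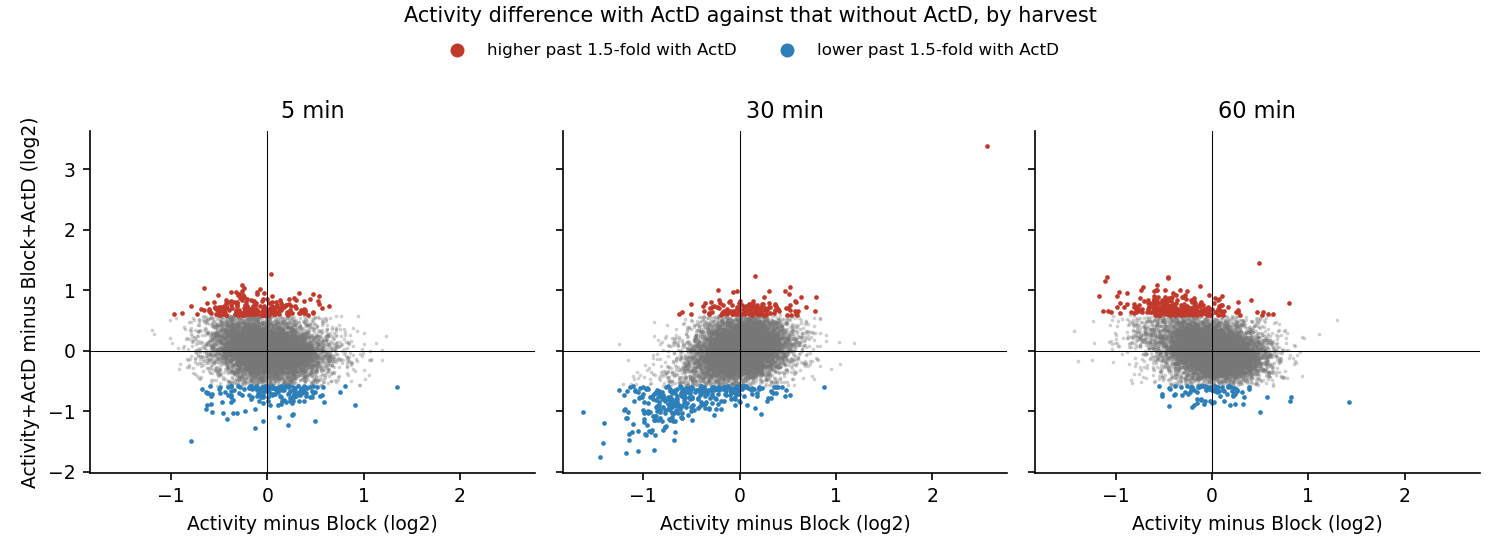
For each of the 11792 probes and each harvest, the difference Activity+ActD minus Block+ActD (vertical axis, log2) is plotted against Activity minus Block without ActD (horizontal axis, log2), with probes past 1.5-fold with ActD in red (higher) and blue (lower). At 30 min the blue probes spread to the lower left, with 283 of 318 below 0 on both axes, while at 60 min 33 of the 270 red probes lie above 0 on the horizontal axis.

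At 60 min higher levels prevailed, and Sv2b had the largest difference among named genes detected on both arrays. Sv2b, a glycoprotein of synaptic vesicles, had 11.65, 12.82 and 12.93 at 5, 30 and 60 min in Activity+ActD cultures, against 11.12, 13.64 and 11.77 in Block+ActD cultures. It was higher by 1.16 at 60 min and lower by 0.83 at 30 min, so its mean difference of 0.29 ± 0.33 (SE) averages over opposite signs. Gria2, the AMPA receptor subunit that sets calcium permeability, had 8.56, 11.84 and 11.70, against 8.21, 11.49 and 10.70, and was higher at all 3 harvests, most at 60 min (0.99). Smc2, a condensin subunit, differed slightly more than Gria2 at 60 min (1.01, with 7.42 in Activity+ActD and 6.41 in Block+ActD). Rb1cc1 (8.42 and 7.42) and Zfp667 (7.10 and 6.11) came after both of them. Without ActD at 60 min the 270 higher probes lay on the other side: 33 were higher (12.2%, against 53.9% of all probes), with a median of -0.38. Their median level at 60 min was 6.92 in Activity+ActD and 6.14 in Block+ActD cultures, and 6.68 in Activity and 7.08 in Block cultures without ActD. The Block+ActD array was the further of the 2 arrays with ActD from those without it for 237 of the 270 probes (87.8%), compared with 7473 of all 11792 (63.4%) and with 49 of the 86 lower probes of 60 min (57.0%). The lower genes at 60 min were led by Tspy26 (6.13 in Activity+ActD and 7.07 in Block+ActD), the actin-binding protein Tagln2 (6.205 and 7.11), Trappc9, a trafficking complex subunit (5.71 and 6.62), Tmem161a (5.38 and 6.26) and the carbonic anhydrase Car3 (5.49 and 6.34). Of these 86 probes 53 were also lower at 5 min (61.6%, against 51.0% of all probes), 32 at 30 min (37.2%, against 47.2%) and 43 without ActD at 60 min (50.0%, against 45.9%). Across all probes, which are not independent replicates, the differences at 5 and 60 min had a Pearson correlation of 0.21, those at 5 and 30 min -0.06 and those at 30 and 60 min -0.10, with no array shared between harvests.

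**Figure D4:**
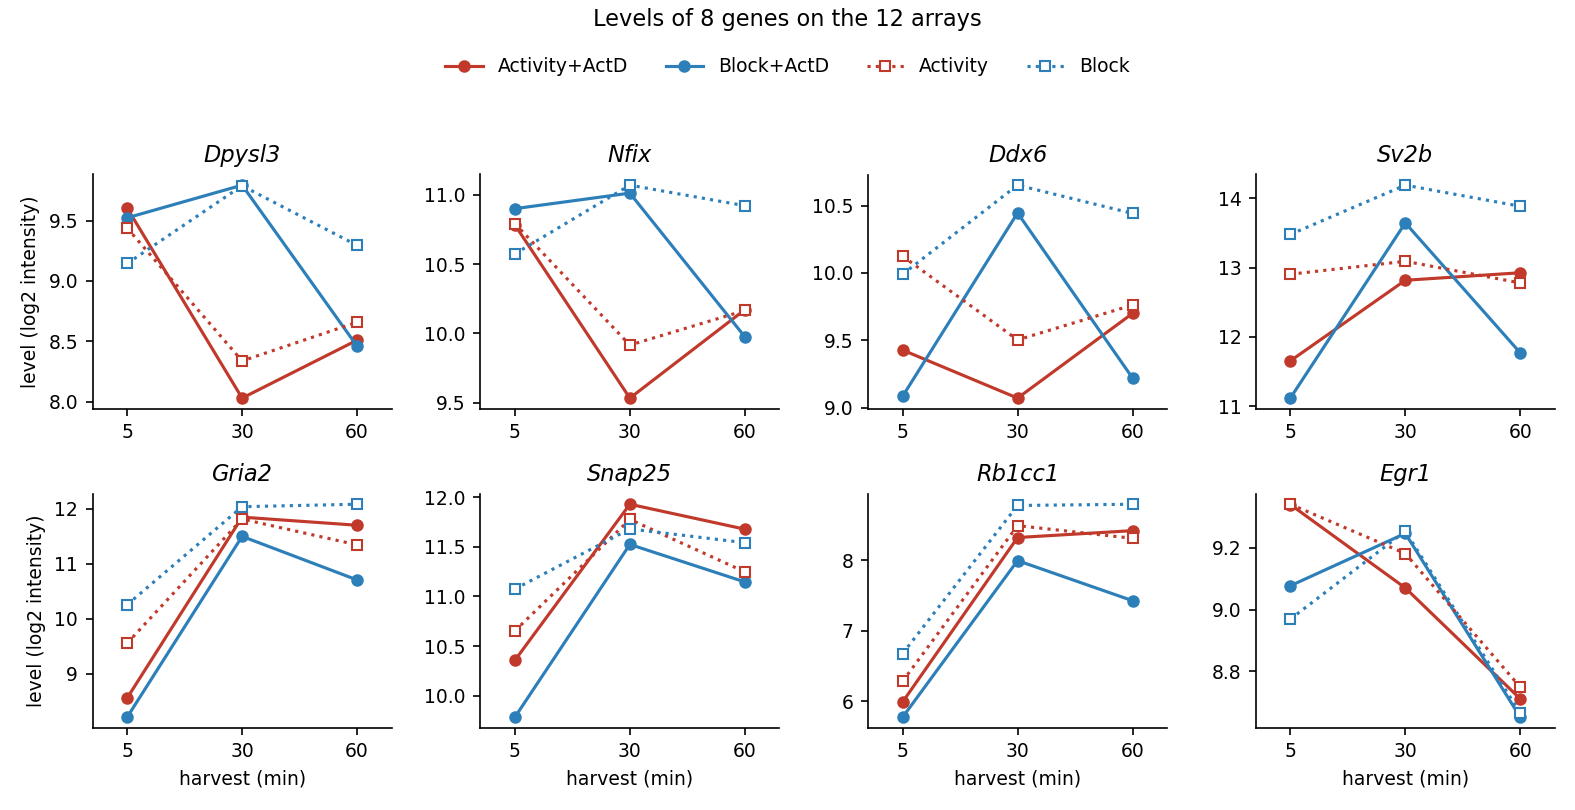
Log2 levels of 8 genes on the 12 arrays by harvest, for Activity+ActD (red, filled), Block+ActD (blue, filled), Activity (red, open) and Block (blue, open). In Dpysl3, Nfix and Ddx6 the Block+ActD line lies high at 30 min and joins or falls below the Activity lines at 60 min, and Egr1 has nearly the same level under all 4 treatments at 60 min (8.65 to 8.75).

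Gene lists were then described by how many measured members lay on each side, with the 2 highest and the 2 lowest among members detected on at least 4 of the 6 arrays as examples, next to all probes (47.5% above 0 on the mean over harvests, 52.5% below). Some examples, among them Gad2, Elavl3, Adcyap1r1 and U2surp (5 of the 6 arrays each), were thus not detected on every array. Of the 44 immediate early genes 30 were higher and 14 lower in Activity+ActD cultures, with medians of 0.04, 0.04 and 0.05 at 5, 30 and 60 min and 0 called by limma. Prostaglandin synthase Ptgs2 had the highest mean among members detected on at least 4 of the 6 arrays, with 6.22, 7.41 and 6.62 in Activity+ActD cultures, against 6.11, 7.08 and 6.19 in Block+ActD cultures (0.30 ± 0.20, SE). The neurotrophin Bdnf had 7.38, 7.10 and 6.97, against 7.09, 6.96 and 6.69 (0.24 ± 0.20, SE). Both were higher at every harvest by less than 1.5-fold. At the other end, the serum response factor Srf differed by -0.13 ± 0.08 (SE) and the inhibitor of differentiation Id3 by -0.13 ± 0.15 (SE). With arrays scaled to equal totals the median at 30 min was -0.07, while that of all probes was -0.08, and after median scaling the medians at 60 min were -0.02 for the list and -0.08 for all probes.

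Neuronal lists lay on different sides of 0 at different harvests. Of the 41 axon and neuron projection genes 35 were higher at 5 min (median 0.10), 15 at 30 min (median -0.15) and 31 at 60 min (median 0.08), and 7 were higher and 0 lower at all 3. The neurofilament subunit Nefm was the highest of them on average, with 8.69, 9.81 and 8.99 in Activity+ActD cultures, against 8.27, 9.50 and 8.89 in Block+ActD cultures, and the adhesion molecule Cntn1 had 6.54, 8.48 and 8.62, against 6.25, 8.64 and 8.09. Dpysl3 and Kif5c were the lowest. The 33 synaptic vesicle genes had medians of 0.12, -0.12 and -0.03, with 25, 12 and 15 higher at the 3 harvests. Snap25 and Sv2b were the highest, and Syn2, a vesicle tether (-0.29 ± 0.19, SE, with -0.91 at 30 min), and the presynaptic adhesion protein Nrxn2 the lowest. The 34 postsynaptic genes had medians of 0.13, -0.10 and 0.07 (-0.01 at 60 min after median scaling, where all probes had -0.08), with 25, 15 and 22 higher. They were led by Gria2 (0.56 ± 0.25, SE) and the GABA-A receptor subunit Gabrb1, with 8.06, 11.04 and 10.97, against 7.85, 10.63 and 10.23 (0.45 ± 0.19, SE). Camk2b and the scaffold Homer3 (-0.34 ± 0.17, SE) were the lowest. None of these 3 lists held a gene called by limma, and 7 postsynaptic, 6 axon and 5 vesicle genes were lower past 1.5-fold at 30 min, against 2.7% of all probes. The 14 interneuron markers had medians of 0.10, -0.01 and -0.02, with 9 higher and 5 lower on average. The GABA-synthesizing enzyme Gad2 had 5.51, 5.82 and 6.01 in Activity+ActD cultures, against 4.60, 6.29 and 5.53 in Block+ActD cultures, and the neuropeptide Vip 5.99, 8.33 and 7.37, against 5.58, 8.15 and 7.26. The neuropeptide Cck (-0.11 ± 0.09, SE) and the transcription factor Lhx6 (-0.05 ± 0.15, SE) were the lowest.

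The list whose mean differences had the median furthest from 0 (0.20) held long transcripts of scaffold and coiled-coil proteins. Transcript length was not measured here, so length and protein class cannot be told apart in this list. Of its 20 measured genes 16 were higher on average, 9 were higher at all 3 harvests (45.0%, against 13% of all probes) and 0 lower, and the medians were 0.20, 0.12 and 0.44, while equal-total scaling put the 30 min median at -0.02 and that of all probes at -0.08. The list was drawn up with earlier results of these arrays known, so its side is not independent evidence. The cohesin subunit Smc3 had 7.44, 10.38 and 10.31 in Activity+ActD cultures, against 6.98, 9.96 and 9.57 in Block+ActD cultures (0.54 ± 0.28, SE). At 60 min 7 of the 20 were higher past 1.5-fold, against 2.29% of all probes. At 30 min 3 were lower past 1.5-fold, Kif5c, Myo5a and Map2. Without ActD the medians of the same genes lay on the other side, at -0.32, -0.14 and -0.45. Zinc finger factors of the Zfp and Zbtb families leaned the same way on average, with 76 of 129 higher and 29 higher at all 3 harvests (22.5%). Their medians were 0.04, 0.08 and 0.0043 at 5, 30 and 60 min, and at 60 min 65 were higher and 64 lower. With equal totals the 30 min median was -0.06, where all probes had -0.08. They were led by Zfp386 (0.57 ± 0.28, SE) and Zfp667 (0.55 ± 0.22, SE), while Zfp746 (-0.28 ± 0.13, SE) and the decay factor Zfp36l2 (-0.27 ± 0.18, SE) were lowest.

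Genes of protein synthesis and respiration leaned slightly the other way. Of 56 mitochondrial ribosomal proteins 44 were lower and 12 higher, with medians of -0.10, 0.05 and -0.11, and 12 were lower at all 3 harvests (21.4%, against 13.6% of all probes). Mrps10 was the lowest, with 6.18, 7.73 and 6.09 in Activity+ActD cultures, against 6.88, 7.75 and 6.52 in Block+ActD cultures (-0.39 ± 0.17, SE). Of 56 oxidative phosphorylation genes 38 were lower, 14 of them at all 3 harvests (25.0%), with medians of -0.03, 0.02 and -0.07. The complex I subunit Ndufs8 had 11.49, 11.15 and 11.07, against 11.55, 11.24 and 11.38, and Ndufs1 of the same complex 10.32, 10.41 and 10.48, against 10.29, 10.29 and 10.19. Of 61 cytosolic ribosomal proteins 36 were lower (medians -0.02, -0.02 and -0.04, with 30 min at 0.03 after equal-total scaling, where all probes had -0.08, and at 0.14 after median scaling, where they had 0.05), and members varied. The lowest were Rplp2, with 6.30, 6.21 and 6.34 in Activity+ActD cultures, against 6.84, 6.81 and 6.34 in Block+ActD cultures, and Rpl7a (-0.20 ± 0.08, SE). The highest were Rps3a (0.12 ± 0.08, SE, with 0.37 at 30 min) and Rpl17, which had 14.14, 13.996 and 14.23 in Activity+ActD cultures, against 14.08, 13.91 and 14.14 in Block+ActD cultures. No gene of these 3 lists was called by limma.

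Genes that act on mRNA stability were nearly evenly split. Of 51 decay and microRNA silencing genes 24 were higher and 27 lower, with medians of 0.04, -0.03 and 0.04. The neuronal RNA-binding protein Elavl3 had 5.85, 6.68 and 6.22 in Activity+ActD cultures, against 4.92, 6.36 and 6.26 in Block+ActD cultures, and Fmr1, the fragile X protein gene, 6.28, 8.13 and 8.63, against 5.92, 8.08 and 7.92. Smg6, an endonuclease of nonsense-mediated decay, differed by -0.31 ± 0.13 (SE). Chaperones were split 14 to 13, with Hsp90aa1 (0.40 ± 0.29, SE) and Hspa4 (0.34 ± 0.14, SE) at the top and the stress-induced Ddit4 (-0.22 ± 0.10, SE) and Dnajb1 (-0.18 ± 0.07, SE) at the bottom. Of 13 p53 targets, a pathway that DNA-binding drugs can engage, 6 were higher and 7 lower, and Mdm2, which restrains p53, differed by 0.10 ± 0.11 (SE).

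Predicted microRNA targets had medians close to 0. The targets of miR-666-3p and miR-761, which the study also named, were not examined. Of the 147 measured targets of the seed CUCUGGG (miR-326-3p, miR-330-5p) 78 were higher and 69 lower, with medians of 0.02, -0.02 and -0.01, and 12.9% were lower at all 3 harvests, against 13.6% of all probes. U2surp, a splicing-associated protein with a second, dimmer probe at 0.28, was the highest of them, with 6.02, 8.13 and 8.26 in Activity+ActD cultures, against 5.06, 7.95 and 7.63 in Block+ActD cultures. Rap2a, described above, was the lowest. Of the 110 targets of miR-485-5p 39 were higher and 71 lower (among all probes 52.5% were lower), with medians of 0.01, -0.04 and -0.02. Their mean differences had a median of -0.035, against -0.0079 for all probes. The share of these targets that was lower at all 3 harvests was 12.7%. Dpysl3 was the lowest target, and Adcyap1r1, the receptor of the neuropeptide PACAP, had 4.89, 5.72 and 6.76, against 5.98, 6.05 and 6.72 (-0.46 ± 0.19, SE). The deubiquitinase Usp47 (0.34 ± 0.19, SE) and the RNA methylation reader Ythdc1 (0.31 ± 0.18, SE) were the highest. The study picked these microRNAs from its own lists of destabilized transcripts, so the direction of their targets is not independent evidence.

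The list of genes that the study singled out included 3 that were lower past 1.5-fold at single harvests, 1 at 5 min and 2 at 30 min, and 0 that were higher. Among all probes 1.42% were lower past 1.5-fold at 5 min and 2.7% at 30 min. The vesicle glycoprotein Sv2a had 5.70, 5.56 and 5.57 in Activity+ActD cultures, against 5.50, 5.89 and 5.55 in Block+ActD cultures. Eml2, a microtubule-binding protein, had 7.76, 7.43 and 7.94, against 7.47, 7.41 and 7.88, and the protease Nrdc 7.79, 7.98 and 7.90, against 7.68, 8.13 and 7.87. The first and the last of these were higher at 5 and 60 min and lower at 30 min. Of the 13 measured genes of this list 6 were higher and 7 lower, and 0 were called by limma. The transcription factor Creb1 (-0.32 ± 0.17, SE) and the semaphorin receptor Plxna2 (-0.22 ± 0.19, SE) were the lowest, with -0.71 at 5 min for Creb1 and -0.83 at 30 min for Plxna2. Npas4 and Arrb1 were on the array but not detected on enough arrays to be tested, and no probe was named Homer1 or Mapt. Map2 lies outside this list, and the study stained its protein as a dendrite marker in another experiment. The Map2 transcript was lower by 1.02 at 30 min and higher by 0.91 at 60 min.

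**Figure D5:**
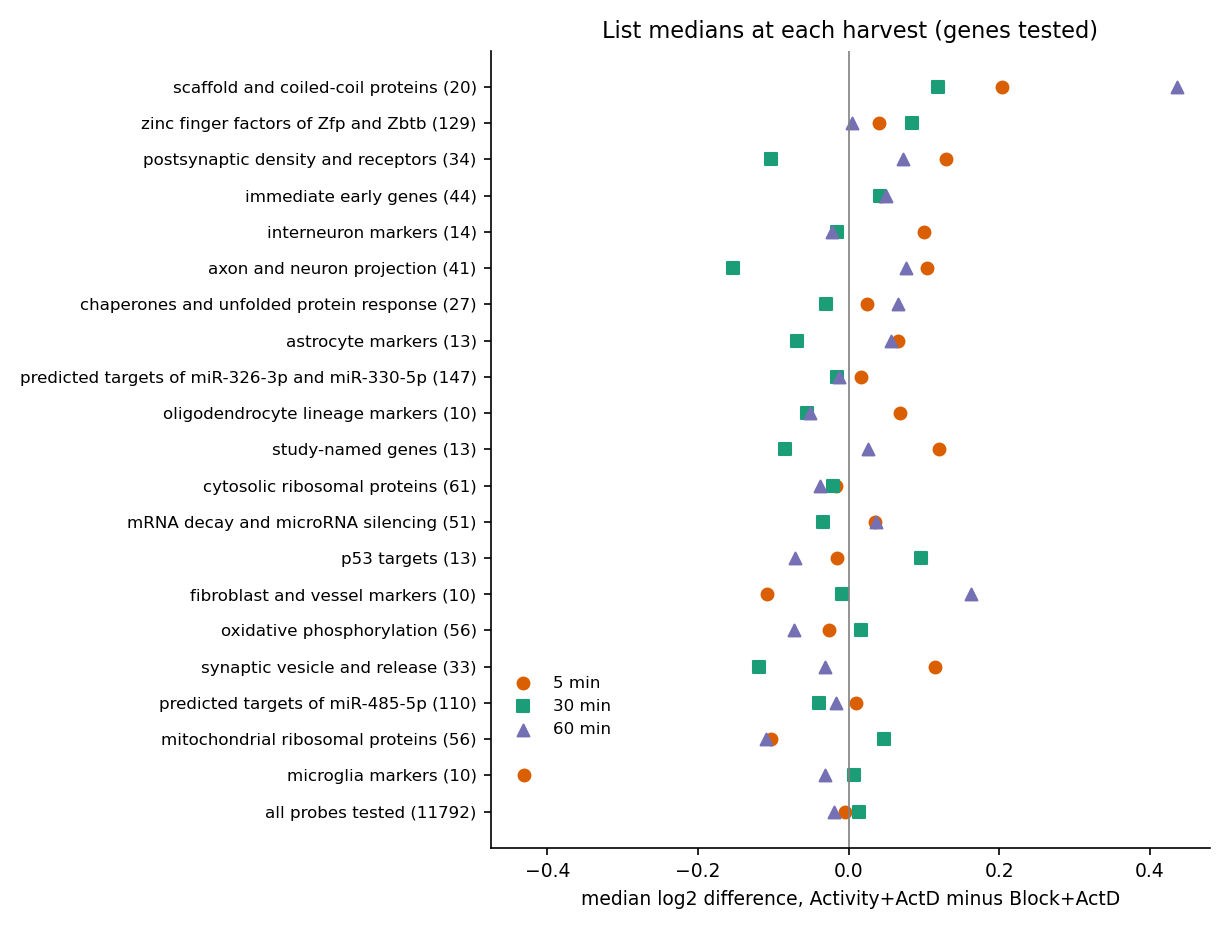
Median log2 difference of Activity+ActD minus Block+ActD at 5 min (circles), 30 min (squares) and 60 min (triangles) for each gene list, with the number of genes measured, and for all probes tested. Axon, synaptic vesicle and postsynaptic lists lie above 0 at 5 min and below 0 at 30 min, microglia markers lie at -0.43 at 5 min alone, and the scaffold list lies above 0 at all 3 harvests (with equal totals its 30 min median was -0.02 and that of all probes -0.08).

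Whether the activity difference depended on ActD was tested as the interaction of stimulus and inhibitor. In limma 0 of 11792 probes (0%) passed an adjusted p of 0.05, the lowest adjusted p was 0.705, and 755 probes stood at p under 0.05 before adjustment (369 with a positive and 386 with a negative interaction). Of the 20 genes with the lowest p with ActD, 5 differed the same way at all 3 harvests without it (3 of the higher and 2 of the lower genes), and 5 differed the opposite way at all 3. The difference between both effects was not called for any of them. Across probes the activity differences with and without ActD, which share no array, had a Pearson correlation of -0.18 at 5 min, 0.37 at 30 min and -0.32 at 60 min.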

How the data were processed

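RNA of rat hippocampal cultures was hybridized to Illumina RatRef-12 arrays. The deposited values are a linear intensity and a detection p-value for each probe, exported by the authors from BeadStudio (version not given in the sources used here). In the deposited series table these intensities had been rescaled, each array by its own factor (0.882 to 1.12) so that totals were equal, and it served as an alternative. Each sample had 1 column of each kind, and 0 other columns were left out. Background was corrected with the detection p-values, and intensities were then quantile-normalized and converted to log2 with an offset of 16 (neqc, limma 3.58.1, R 4.3.3), although the methods scaled arrays globally. Total intensity was 10858200 to 13824800 per array, and precision was limited by how few arrays there were. The test covered probes detected (p under 0.01) on 2 or more arrays. Treatment and harvest were fitted over all 12 arrays with a variance trend, p-values were two-sided and adjusted by Benjamini-Hochberg over 11792 probes (threshold 0.05), and the procedure was tested on simulated data. Of 22523 probes, 13793 carried 1 gene symbol, 8730 none and 0 several, and 13752 symbols matched RefSeq (GRCr8).

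Named genes were the 10 higher and 10 lower with the lowest p among those with 1 direction at all harvests and detection on at least 4 of the 6 arrays with ActD, the 5 largest each way at each harvest among probes detected on both arrays, the 2 highest and 2 lowest of each of 20 lists, and genes the study discussed. The brightest probe stood for a gene. The z-fold was computed from log2 values of arrays scaled to equal totals, without background correction, as z-score differences over their SD, since its exact formula is not given in the sources used here. The comparison, lists and rules were chosen with earlier results of these data known. Alternatives covered scaling, offset, detection filter, variance model, arrays in the fit, and each harvest or array left out.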

Additional observations from a re-analysis of the deposited data

Results flagged for a closer look

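For 5 of the 20 genes with the lowest p, the difference Activity+ActD minus Block+ActD had 1 sign at all 3 harvests and Activity minus Block without ActD had the opposite sign at all 3. The difference between both effects was 0.90 for Rb1cc1 and 0.91 for Setd2, which were higher in Activity+ActD cultures. It was -0.85 for Afg3l1, -0.53 for Rap2a and -0.85 for Or2l5, which were lower. None of the 5 was called when this difference was tested as an interaction in limma (adjusted p = 0.705 for each). These genes were chosen for having 1 direction with ActD, so only the direction without ActD was free to vary.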

How the results depend on the processing

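Arrays were paired by harvest, which was a factor of the fit, and without this factor 0 probes were called as well. In limma 0 probes were called for the activity effect with ActD under all 26 alternatives (lowest adjusted p 0.410, without the harvest of 5 min) and 0 for the interaction under all 24 (lowest 0.159). The count at an unadjusted p under 0.05 for the activity effect, 338, ranged from 198 to 861 when a harvest or an array was left out: it was 861 without the Activity+ActD array of 5 min, 839 without the Block+ActD array of 30 min, 721 without the harvest of 5 min and 198 without that of 60 min. Probes past 1.5-fold numbered 380, 454 and 356 at 5, 30 and 60 min. They numbered 139, 258 and 155 among probes detected on all 6 arrays, 19, 205 and 103 after scaling to equal total intensity and in the series table, and 30, 169 and 105 with an offset of 50. At 2-fold there were 18, 66 and 10. The z-fold threshold was passed by 1540, 1207 and 1427 probes on log2 values and by 502, 456 and 444 on linear intensities. Probes with 1 direction at all harvests numbered 3140, or 5732 with no detection filter, and 5489 to 6887 had 1 direction at the 2 harvests that remained without one. The 20 genes with the lowest p were chosen for 1 direction at all harvests, which fixes it when a harvest is left out. With equal totals 15 of the 20 had mean differences smaller by over 1.5 times, and with an offset of 50 it was 12 of the 20. Other named genes were not recomputed singly. The sign of list medians was kept in 177 of 200 values, not all of them free to vary. List medians without a detection filter were those of the main processing, and the series table repeated those of equal totals. Some medians at single harvests changed side. After median scaling the decay list had 0.01 and -0.05 at 30 and 60 min, and chaperones had 0.03 and -0.03, where all probes had 0.05 and -0.08. The causes were not tested. With 1 array per group, differences at single harvests have no replicate check.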
